A study of Homo sapiens with 9 samples.

Results

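The genes described here are DKK1 and 9 other genes of the Wnt pathway: DKK3, SFRP1, WNT5A, WNT5B, AXIN2, LRP6, FZD7, CTNNB1 and LEF1. They were taken by symbol from a table of 58299 genes, all 10 were found, and all 10 passed the filter on low counts, which 14965 genes passed. DKK1 had been chosen by its measured level, for being lower at 24 h than under DMSO in these same libraries, so its values are a description here and carry no test. The other 9 were listed for their place in the pathway, with earlier results of these data known.

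RNA was sequenced from AC16, an established human line that came from a fusion of ventricular heart cells with a transformed fibroblast line. The 3 groups held 3 libraries each. Control cells received the vehicle DMSO at 0.1% for 72 h, and the treated cells received CDDO-Me at 100 nM, with 24 h of exposure in one group and 72 h in the other. CDDO-Me, also known as bardoxolone methyl, is a synthetic triterpenoid known for activating the transcription factor NRF2, and some labels call it CDDO. The only vehicle group analysed here was the one at 72 h, so at 24 h the treatment and the shorter culture cannot be told apart. All groups came from 1 cell line. Nothing in the labels tells if the replicates grew as separate cultures, so p-values measure only the spread between these libraries, which may be technical.

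Wnt proteins are secreted signals that bind Frizzled receptors, often together with the co-receptors LRP5 and LRP6. In the canonical branch this binding stops the destruction complex from degrading β-catenin, which then enters the nucleus and works with TCF and LEF factors on target genes. Other branches, for which WNT5A and WNT5B are best known, act without β-catenin on cell shape, polarity and movement. DKK1 binds LRP5 and LRP6 and blocks the canonical branch, and it is itself a known target of that branch. In the heart the pathway is best known for its roles in development and after injury.

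Library depth ran from 16898977 to 27910031 counts, so 3 counts, the limit that a count of 0 allows, equalled 0.11 to 0.175 CPM (counts scaled to a common library size). That limit covers counting error only. Replicate 3 of the 24 h group stood apart: its root mean square log2 difference was 0.359 and 0.337 to the other 24 h libraries, and 0.248 to 0.258 to the 72 h treated libraries. The summed level of 5 genes known to respond to NRF2 (NQO1, HMOX1, GCLM, TXNRD1 and SRXN1) was 1158 to 1350 CPM under DMSO, 3313 and 3548 in the other 24 h libraries, 6560 in replicate 3 and 6875 to 6964 at 72 h. Replicate 1 of the DMSO group also differed more from its fellows, by 0.238 and 0.261 against 0.174 between the other two. Counts below are therefore given with and without these 2 libraries. They were picked by their distance in these same data. Fits without either or both tend to understate the spread, and their p-values may be too small. Cardiomyocyte markers were nearly absent: none of 10 passed the filter, 6 of them, among which MYH6, MYH7 and MYL2, had no read in any library, and their summed level was at most 0.99 CPM. Fibroblast markers (8 of 8 tested) summed to 10520 to 17550 CPM, most of it COL1A1 at group means of 9069 to 9599 CPM. Within that list POSTN, FAP and PDGFRA were lower at 72 h than under DMSO, with log2 differences of -3.33, -1.28 and -0.76 (adjusted p = 1.17e-07, 0.0294 and 0.0376 by edgeR). The other 5 were not called. COL1A1, COL1A2 and COL3A1 differed by 0.08, 0.31 and 0.34, and THY1 and PDGFRB by -0.17 and -0.09. Over all tested genes 6.02% were called at 72 h against DMSO. Markers of smooth muscle summed to 263 to 434 CPM under DMSO, 180 to 270 at 24 h and 213 to 232 at 72 h, and of these MYOCD and ACTA2 were lower at both times (log2 differences at 72 h -2.63 and -0.98, adjusted p = 9.62e-06 and 0.0224 by edgeR) and CNN1 was higher at 72 h (0.37, adjusted p = 0.0499). Those of epithelium gave 225 to 269, 154 to 221 and 128 to 137 CPM, with KRT18 (means 193 and 96.2 CPM, adjusted p = 0.000236 by edgeR) and KRT19 (21.1 and 7.51 CPM, adjusted p = 2.75e-05) lower at 72 h than under DMSO. Endothelial and leukocyte markers stayed at or under 5.02 CPM. The 5 long noncoding RNAs taken as a sign of RNA quality summed to 398 to 534, 436 to 587 and 380 to 404 CPM. The part of any of these in the results below was not tested. In bulk RNA, fewer cells of a type and less RNA per cell cannot be told apart.

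DKK1 (ENSG00000107984) is a protein-coding gene on chromosome 10, at 52314296 to 52318042 on the plus strand of GRCh38. It had the highest level per exon length of the 10 genes in every group and was lower in every treated library than in every DMSO library. Its level was 475, 482 and 511 CPM in the DMSO libraries, 291, 302 and 260 CPM after 24 h of CDDO-Me, and 374, 369.5 and 399 CPM after 72 h. The 3 groups did not overlap with each other: the 24 h libraries were lowest, the 72 h libraries lay between, and the DMSO libraries were highest. Of all tested genes, 13.5% did not overlap with DMSO at 24 h and 30.7% at 72 h. DKK1 was picked for its low 24 h level, so the low place of its 24 h libraries follows from that choice. The means were 489.5 ± 19.1, 284 ± 21.9 and 381 ± 16.2 CPM (SD, n = 3 each). That is a level 1.72-fold lower at 24 h (log2 difference -0.78), still lower at 72 h (-0.36), and 0.42 higher on the log2 scale at 72 h than at 24 h. Replicate 3 of the 24 h group had the lowest DKK1 level of all libraries. By root mean square log2 difference this library was nearer to the 72 h libraries than to the other 24 h libraries. Without it the log2 difference at 24 h was -0.73. The counts behind these values were 5005 to 10568 reads per library. An antisense gene, PRKG1-AS1, shares 212 exon bases with DKK1, and the library kit does not mark strand, but PRKG1-AS1 had only 11 to 24 reads per library.

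The sequence just upstream of DKK1 is shown because TCF and LEF factors, the end of the canonical branch, recognise a short core that can be searched for in it. It is the plus strand of GRCh38.p14 at chr10:52314081-52314280, from RefSeq, 5′ to 3′, 200 bases long, with a GC content of 66.0%. All of it lies within GENCODE 29 exons of PRKG1-AS1 on the opposite strand. Capitals mark the TCF/LEF core CTTTGA, read on either strand, and the core GGAATG of the TEAD factors.
DKK1 upstream: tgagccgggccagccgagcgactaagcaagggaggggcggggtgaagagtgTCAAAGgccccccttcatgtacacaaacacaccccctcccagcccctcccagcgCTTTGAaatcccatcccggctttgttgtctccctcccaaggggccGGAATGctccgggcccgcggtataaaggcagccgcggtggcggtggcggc
The TCF/LEF core occurs at 149 to 144 bases before the RefSeq start of the gene (minus strand, so written TCAAAG) and again at 95 to 90 bases (plus strand). Of 35116 promoter windows in the same table, each searched over the 250 bases before its start, 11.2% held the core at least once and 0.977% held it at least 2 times. GGAATG occurs once, 50 to 45 bases before the start, and 11.9% of windows hold it. Neither the AP-1 motif TGANTCA, in 6.57% of windows, nor the antioxidant response core TGACNNNGC, in 10.9%, was found in the window of DKK1. The motifs do not overlap. A match is only a match of letters and does not show binding. Among the other genes, WNT5A, WNT5B, CTNNB1 and LEF1 were also in the promoter table, and their windows held none of the 4 motifs.

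**Figure D1:**
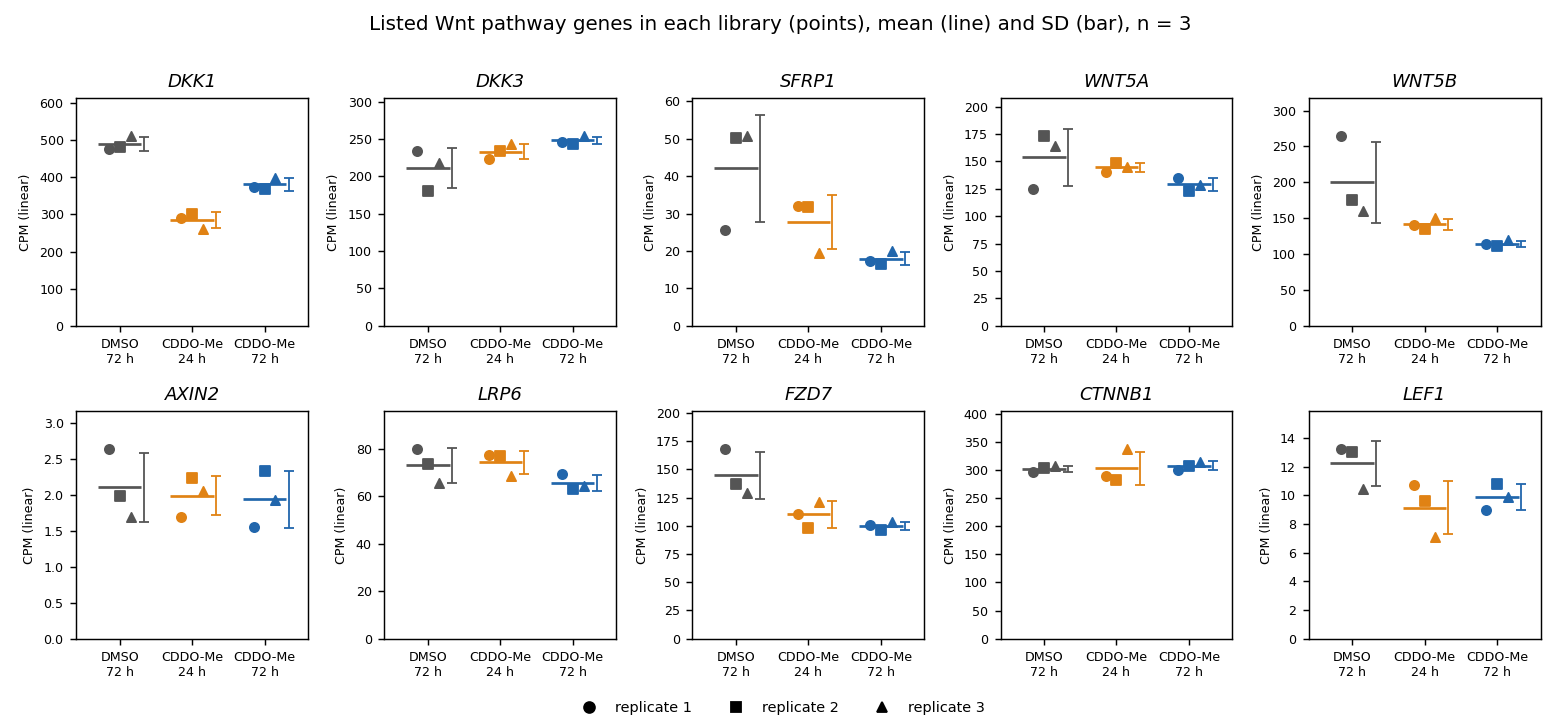
Level of each of the 10 genes in each library, in CPM on linear axes from 0 that differ between panels, with points for libraries, a line for the mean and a bar for the SD of 3 libraries, for DMSO 72 h, CDDO-Me 24 h and CDDO-Me 72 h. DKK1 shows 3 separate groups, SFRP1, WNT5B and FZD7 are lower at 72 h than under DMSO in every library, and CTNNB1 lies at 282 to 338 CPM throughout.

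Across the 9 genes other than DKK1, none passed an adjusted p of 0.05 at 24 h against DMSO in edgeR's quasi-likelihood test with Benjamini-Hochberg adjustment over all tested genes, beside 2.15% of all 14965 genes called and 1.18% called lower. At an unadjusted p under 0.05 there were 3 of 9 (WNT5B, FZD7 and LEF1, all lower), beside 12.8% of all genes. DESeq2 called 2 of the 9 at 24 h (WNT5B and FZD7), and 530 of all genes. At 72 h against DMSO 3 of 9 were lower (SFRP1, WNT5B and FZD7) and none higher, beside 6.02% of all genes called and 3.13% called lower. An unadjusted p under 0.05 was reached there by 5 of 9 (these 3 and WNT5A lower, DKK3 higher), beside 18.6% of all genes. DKK1 is left out of these counts because its choice used the same libraries. Of the same 9, 2 had treated and DMSO groups that did not overlap at 24 h (WNT5B and FZD7, both lower), beside 13.5% of all genes, and 4 at 72 h (SFRP1, WNT5B and FZD7 lower, DKK3 higher), beside 30.7%. The median log2 difference over the 9 was -0.09 at 24 h and -0.25 at 72 h, and over all tested genes it was 0.01 and 0.00. Between 72 h and 24 h of treatment none of the 9 was called by edgeR, beside 1.02% of all genes, or by DESeq2. None had an unadjusted p under 0.05 in edgeR, beside 13.2% of all genes. The 3 comparisons share libraries and are not independent. Without the 2 libraries that stood apart, 4 of the 9 were lower at 24 h (SFRP1, WNT5A, WNT5B and FZD7), the same 4 were lower and DKK3 was higher at 72 h, and 3 were lower at 72 h than at 24 h (SFRP1, WNT5B and LRP6). Over all genes that smaller set gave 3464, 2724 and 3471 calls in the 3 comparisons, where all 9 libraries gave 321, 901 and 152. Leaving out libraries picked for their distance lowers the spread for all genes, so these further calls are no gain particular to the 9.

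**Figure D2:**
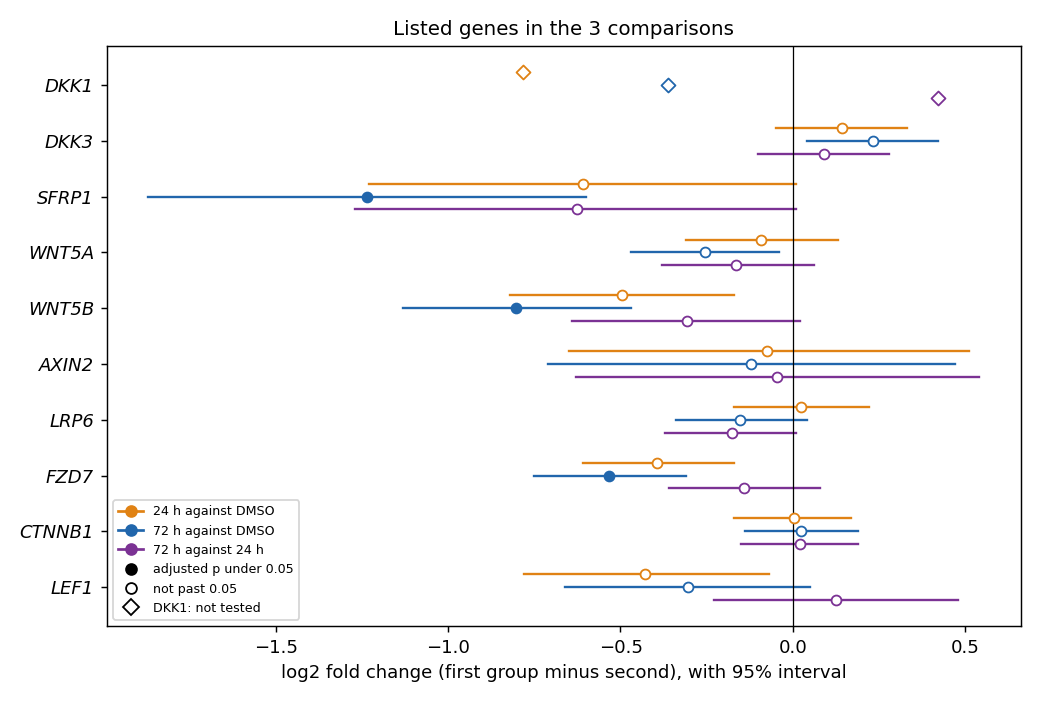
Log2 difference of each gene for 24 h against DMSO, 72 h against DMSO and 72 h against 24 h, with 95% intervals from edgeR for the 9 tested genes and no interval for DKK1, which was not tested. Filled points passed an adjusted p of 0.05, and these are SFRP1, WNT5B and FZD7 at 72 h against DMSO.

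Of the other secreted inhibitors SFRP1 fell at 72 h and DKK3 was not called, and the difference between them was not tested. SFRP1 (ENSG00000104332, chromosome 8, 41261958 to 41309497, minus strand) encodes a secreted protein that resembles the ligand-binding part of Frizzled and binds Wnt proteins outside the cell. Its level was 25.6, 50.1 and 50.7 CPM under DMSO, 32.1, 31.8 and 19.5 CPM at 24 h, and 17.3, 16.5 and 19.9 CPM at 72 h. Every 72 h library was below every DMSO library, while the 24 h libraries overlapped with the lowest DMSO library, replicate 1. SFRP1 fell 2.35-fold at 72 h (log2 difference -1.24, SE 0.28, 95% interval -1.87 to -0.60, adjusted p = 0.0366 by edgeR), the largest fall among the 10 genes. The 24 h difference was not called (log2 difference -0.61, adjusted p = 0.404). The call at 72 h was lost without the filter on low counts (adjusted p = 0.0947) and on leaving out DMSO replicate 2 or 3 (0.0942 and 0.081), 24 h replicate 1 (0.0595) or any 72 h replicate (0.104 to 0.147). Without DMSO replicate 1, the low library, the log2 difference was -1.49 at 72 h (adjusted p = 0.000557) and -0.87 at 24 h (adjusted p = 0.03).

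DKK3 (ENSG00000050165, chromosome 11, 11963106 to 12009769, minus strand) belongs to the Dickkopf family but, unlike DKK1, is not known as an LRP6 blocker. Its level was 234, 181 and 218 CPM under DMSO, 223, 233 and 243 CPM at 24 h and 247, 244 and 254 CPM at 72 h. The 72 h libraries were all above the DMSO libraries, and the 24 h libraries overlapped with them. The difference was 0.14 at 24 h (adjusted p = 0.552) and 0.23 at 72 h on the log2 scale (SE 0.09, 95% interval 0.04 to 0.42, adjusted p = 0.152), and neither was called by edgeR. Its differences from DMSO had the sign opposite to those of DKK1. Without both libraries that stood apart it was called higher at 72 h (log2 difference 0.31).

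Of the 2 ligands in the list, WNT5B fell at 72 h and WNT5A was not called. WNT5B (ENSG00000111186, chromosome 12, 1529891 to 1647243, plus strand) had 264, 175 and 160 CPM under DMSO, 141, 134 and 149.7 CPM at 24 h, and 114, 111 and 119 CPM at 72 h. No group overlapped with another, and the order ran down from DMSO through 24 h to 72 h. WNT5B fell 1.74-fold at 72 h (log2 difference -0.80, SE 0.15, 95% interval -1.13 to -0.47, adjusted p = 0.00909 by edgeR). At 24 h the difference of -0.50 (95% interval -0.82 to -0.17) was not called (adjusted p = 0.15), nor was the -0.31 between 72 h and 24 h (adjusted p = 0.415). DMSO replicate 1 was the highest WNT5B library, and without it the 72 h difference was -0.55, still called. Without DMSO replicate 3 the 24 h difference was -0.63 and was called (adjusted p = 0.046). Over the 16 alternative settings the 24 h difference ran from -0.63 to -0.24 and was called in 4. The highest adjusted p among them was 0.368. At 72 h WNT5B was called in all 16, with adjusted p of at most 0.0474.

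WNT5A (ENSG00000114251, chromosome 3, 55465715 to 55490539, minus strand), the closest relative of WNT5B, had 124, 173 and 164 CPM under DMSO, 141, 148 and 144 CPM at 24 h, and 135, 123 and 129 CPM at 72 h. All groups overlapped with DMSO because DMSO replicate 1 was low, the opposite of its position for WNT5B. The difference was -0.09 at 24 h (adjusted p = 0.782) and -0.25 at 72 h (SE 0.10, 95% interval -0.47 to -0.04, adjusted p = 0.183 by edgeR). Without DMSO replicate 1 the 72 h difference was -0.39 and was called (adjusted p = 0.00898).

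Of the receptor genes, FZD7 fell and LRP6 was not called. FZD7 (ENSG00000155760, chromosome 2, 202034587 to 202038445, plus strand) encodes a Frizzled receptor that binds Wnt ligands at the cell surface. Its level was 168, 137 and 129 CPM under DMSO, 111, 98.1 and 121 CPM at 24 h, and 100.4, 95.9 and 103 CPM at 72 h. Every treated library was below every DMSO library, while the 24 h and 72 h libraries overlapped. FZD7 fell 1.45-fold at 72 h (log2 difference -0.53, SE 0.10, 95% interval -0.75 to -0.31, adjusted p = 0.00563 by edgeR), and this call held in all 16 alternatives with adjusted p of at most 0.0457. At 24 h the difference was -0.39 (95% interval -0.61 to -0.17) and missed the threshold (adjusted p = 0.0656). Leaving out 24 h replicate 3 brought it to -0.47 with an adjusted p of 0.00412. Over the 16 alternatives the 24 h difference ran from -0.47 to -0.27 and was called in 5. The highest adjusted p among them was 0.236.

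LRP6 (ENSG00000070018, chromosome 12, 12116025 to 12267012, minus strand) encodes the co-receptor that DKK1 binds. It had 80.0, 73.6 and 65.6 CPM under DMSO, 77.4, 76.9 and 68.8 CPM at 24 h, and 69.5, 63.2 and 64.5 CPM at 72 h. The groups overlapped in every comparison. The difference was 0.03 at 24 h (95% interval -0.17 to 0.22) and -0.15 at 72 h (95% interval -0.34 to 0.04), with adjusted p of 0.947 and 0.4 by edgeR. Between 72 h and 24 h it differed by -0.18 (adjusted p = 0.418), which was called only without both libraries that stood apart (-0.23, adjusted p = 0.0186).

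CTNNB1, AXIN2 and LEF1 stand for the path inside the cell. CTNNB1 (ENSG00000168036, chromosome 3, 41194741 to 41260096, plus strand) encodes β-catenin, whose activity is set mainly by degradation of the protein, which these data do not measure. Its level was 297, 303 and 308 CPM under DMSO, 289, 282 and 338 CPM at 24 h, and 299, 308 and 315 CPM at 72 h. The groups overlapped, and the differences were 0.00 at 24 h (95% interval -0.17 to 0.17) and 0.02 at 72 h (95% interval -0.14 to 0.19), with adjusted p of 0.994 and 0.913 by edgeR. These intervals make CTNNB1 the most closely bounded of the 9 tested genes.

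AXIN2 (ENSG00000168646, chromosome 17, 65528563 to 65561647, minus strand) encodes a scaffold of the destruction complex and is widely read as a target of canonical signalling. It had 2.64, 1.98 and 1.69 CPM under DMSO, 1.69, 2.23 and 2.05 CPM at 24 h, and 1.55, 2.34 and 1.92 CPM at 72 h, from 29 to 56 reads per library. The groups overlapped throughout. The difference was -0.07 at 24 h (95% interval -0.65 to 0.51) and -0.12 at 72 h (95% interval -0.71 to 0.47), with adjusted p of 0.948 and 0.869 by edgeR, and without DMSO replicate 1 its sign was positive. Changes within these bounds were not detectable at these counts. AXIN2 also shares 1316 exon bases with AC004805.1 on the same strand.

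LEF1 (ENSG00000138795, chromosome 4, 108047545 to 108168956, minus strand) encodes a nuclear partner of β-catenin. It had 13.2, 13.0 and 10.4 CPM under DMSO, 10.7, 9.57 and 7.13 CPM at 24 h, and 9.01, 10.8 and 9.88 CPM at 72 h. The highest 24 h library was above the lowest DMSO library, as was the highest 72 h library. The difference was -0.43 at 24 h (SE 0.17, 95% interval -0.78 to -0.07) and -0.30 at 72 h (95% interval -0.66 to 0.05), with adjusted p of 0.265 and 0.354 by edgeR. LEF1 shares 279 exon bases with the antisense gene LEF1-AS1, which had 0 to 6 reads per library.

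Per length, DKK1 outranked the rest by a wide margin in every group. In CPM per kilobase of exon, using the gene lengths in the deposited table, its level was 222 ± 8.66 under DMSO, 129 at 24 h and 173 at 72 h. Among the 14965 tested genes this put it at rank 89 under DMSO, 222 at 24 h and 143 at 72 h. Next under DMSO came WNT5B at 46.4, DKK3 at 41.7 and FZD7 at 37.5 CPM per kilobase, where WNT5B overlapped with DKK3 and DKK3 with FZD7. CTNNB1 (25.4) and WNT5A (20.8) followed, then SFRP1 (8.86) and LRP6 (7.07), which overlapped, then LEF1 (2.28) and AXIN2 (0.402). After treatment the order changed at the second place: DKK3 stood at 46.1 at 24 h and 49.1 at 72 h, above WNT5B at 32.9 and 26.6. WNT5B overlapped with FZD7 and FZD7 with CTNNB1 at both treated times, and at 72 h the 3 lay at 26.6, 25.9 and 25.8 CPM per kilobase. LRP6 and SFRP1 overlapped at 24 h (7.20 and 5.84) and not at 72 h (6.36 and 3.76).

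**Figure D3:**
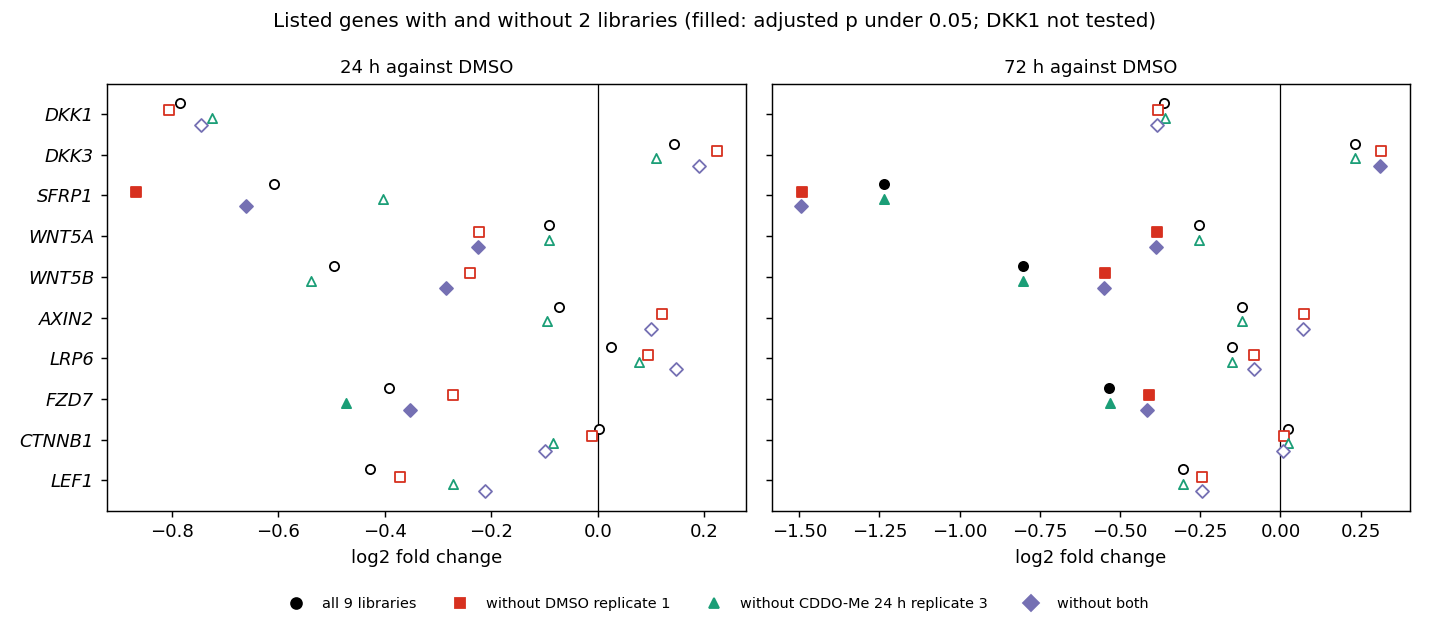
Log2 difference of each gene at 24 h and 72 h against DMSO with all 9 libraries, without DMSO replicate 1, without CDDO-Me 24 h replicate 3, and without both; filled symbols passed an adjusted p of 0.05 and DKK1 was not tested. WNT5B and FZD7 at 72 h are filled in all 4 settings, and AXIN2 changes sign between them.

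The rest of the pathway was read from lists of 99 further genes, of which 65 passed the filter. The other 34 had at most 23 reads in any library and 18 of them had none, and they were not tested. Of the 65, 1 was lower and none higher at 24 h against DMSO (1.54%, beside 2.15% of all genes) and 2 were lower and none higher at 72 h (3.08%, beside 6.02%). At an unadjusted p under 0.05 there were 10 (15.4%) and 18 (27.7%) of the 65, beside 12.8% and 18.6% of all genes. DESeq2 called 3 and 5 of the 65, and 530 of all genes at 24 h. Its count over all genes at 72 h against DMSO is not given here. Between 72 h and 24 h none was called by edgeR, 7 (10.8%) were at an unadjusted p under 0.05, beside 13.2% of all genes, and DESeq2 called 2. The median log2 difference of the 65 was -0.02 at 24 h and -0.08 at 72 h. Without 24 h replicate 3 the counts were 12 at 24 h (5 higher, 7 lower), 11 at 72 h (2 higher, 9 lower) and 9 between the treated groups, and over all genes 1657, 1972 and 1843 were called.

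PRICKLE1 (ENSG00000139174, chromosome 12, 42456757 to 42590355, minus strand), a cytoplasmic protein of the planar polarity branch, was the gene called at 24 h and one of the pair called at 72 h. Its level was 12.8, 15.8 and 15.6 CPM under DMSO, 8.03, 6.79 and 6.43 CPM at 24 h, and 7.66, 7.38 and 7.26 CPM at 72 h. All treated libraries were below all DMSO libraries, and both treated groups were at about the same level. PRICKLE1 fell by 1.06 on the log2 scale at 24 h (SE 0.14, adjusted p = 0.00094 by edgeR) and by 0.99 at 72 h (SE 0.14, adjusted p = 0.000714), and was called in all 16 alternatives at both times. It shares 438 exon bases on the opposite strand with PPHLN1, which was at 59.0 to 66.3 CPM in the group means, and 1858 with AC079601.1, and reads from the strands cannot be told apart.

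CCND1 (ENSG00000110092, chromosome 11, 69641087 to 69654474, plus strand), which encodes cyclin D1 and is a known target of canonical signalling among other inputs, was the other gene called at 72 h. It had 197, 161 and 147 CPM under DMSO, 121, 117 and 195 CPM at 24 h, and 84.7, 86.4 and 87.4 CPM at 72 h. The 72 h libraries were all below the others, and 24 h replicate 3 was close to the highest DMSO library. CCND1 fell by 0.97 on the log2 scale at 72 h (SE 0.19, adjusted p = 0.0156 by edgeR), a call lost on leaving out any 72 h library (adjusted p of 0.0652 to 0.071). At 24 h it differed by -0.22 (adjusted p = 0.696), and by -0.51 without 24 h replicate 3 (adjusted p = 0.00236). Without that library CCND1 was also called lower at 72 h than at 24 h (-0.46, adjusted p = 0.00445). It shares 497 exon bases with LTO1 on the opposite strand.

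In the other lists no gene was called in either comparison with DMSO, and the gene of each with the highest average log2 CPM is given here with its group means under DMSO, at 24 h and at 72 h. Among 5 tested further ligands WNT3 had 6.30, 6.88 and 5.56 CPM. WLS, which carries Wnt proteins to the cell surface, had 101, 114 and 99.7 CPM. FRZB, the only tested further inhibitor of 11 listed, had 4.27, 4.19 and 4.05 CPM, and the 10 others had at most 5 reads in any library. PTK7, a co-receptor of the noncanonical branch and the most abundant of 13 further receptors, had 304, 334 and 283 CPM. LGR4, a receptor for R-spondins, had 83.0, 77.4 and 81.8 CPM. DVL3, which relays the signal from Frizzled, had 161, 159 and 150.1 CPM, and in its list of 15 tested Dishevelled and destruction complex genes it tied for the highest average with the kinase gene CSNK1D at 162, 161 and 149 CPM. TLE4, a co-repressor that binds TCF and LEF factors, led 12 nuclear genes at 102, 88.8 and 90.8 CPM. Without 24 h replicate 3, PTK7 was called higher at 24 h than under DMSO (log2 difference 0.28, adjusted p = 0.0156 by edgeR) and TLE4 lower (-0.27, adjusted p = 0.0197).

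**Figure D4:**
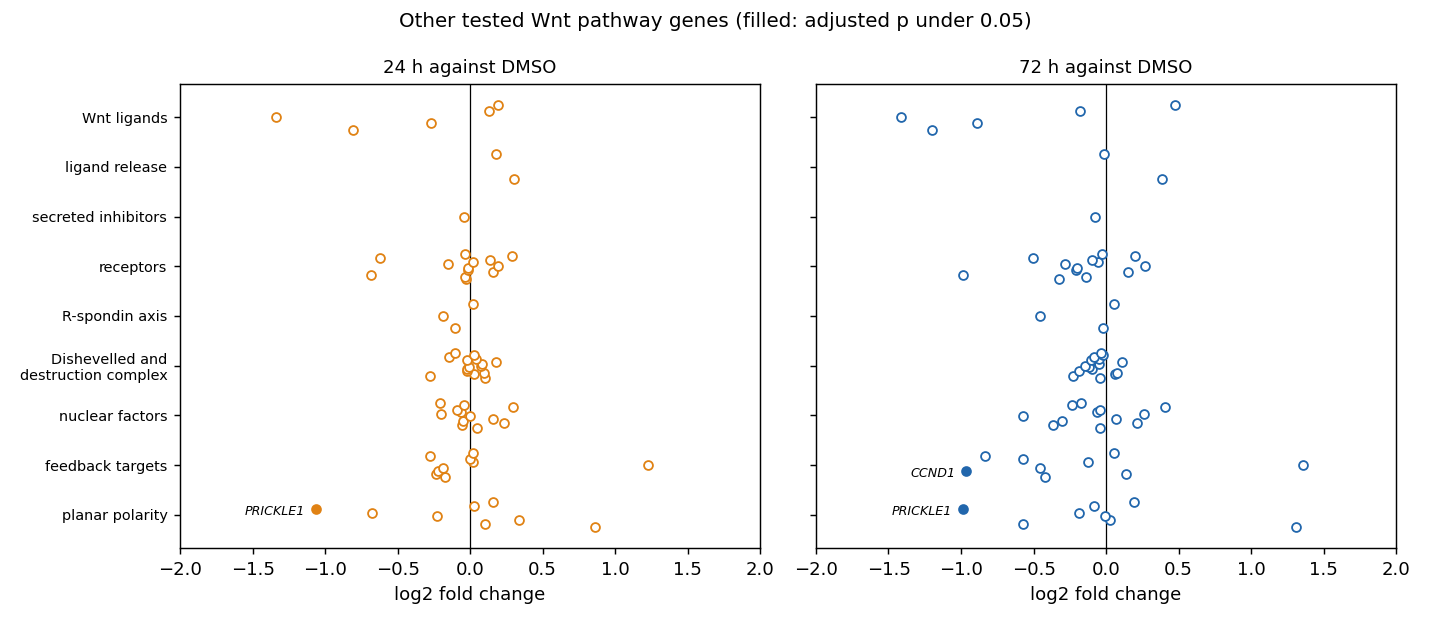
Log2 difference at 24 h and at 72 h against DMSO of each of the 65 tested further pathway genes, 1 point per gene, in rows by role. Filled points passed an adjusted p of 0.05, which are PRICKLE1 at 24 h and PRICKLE1 and CCND1 at 72 h.

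The genes whose levels ran most like DKK1 were sought among 9775 genes by Pearson's r of log2 CPM over the 9 libraries. The first 5 were JPT2 and MB21D2 (r = 0.966 each), EDN1 (0.959), DIO2 (0.956) and RHOC (0.954). The 9 libraries form 3 groups, so r here describes mostly the order of the groups, and it carries no p. EDN1, the precursor of the vasoconstrictor peptide endothelin-1, had 23.7, 43.6 and 50.3 CPM under DMSO, 4.60, 5.67 and 5.23 CPM at 24 h, and 19.4, 18.8 and 20.8 CPM at 72 h. DIO2, an enzyme that activates thyroid hormone, had means of 14.0, 4.87 and 7.76 CPM in the same order. RHOC, a small GTPase, differed far less, at 239, 197 and 219 CPM, as did JPT2 at 254, 216 and 238 CPM. MB21D2 had 34.3, 20.1 and 28.2 CPM. All 5 had the lowest mean at 24 h and an intermediate mean at 72 h, an order like that of DKK1 which picking by r favours. They differed in size. Within the list itself, r with DKK1 was 0.72 for LEF1, 0.53 for FZD7, 0.45 for SFRP1, 0.43 for WNT5B, 0.20 for WNT5A, 0.06 for AXIN2, -0.10 for CTNNB1, -0.11 for LRP6 and -0.42 for DKK3.

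**Figure D5:**
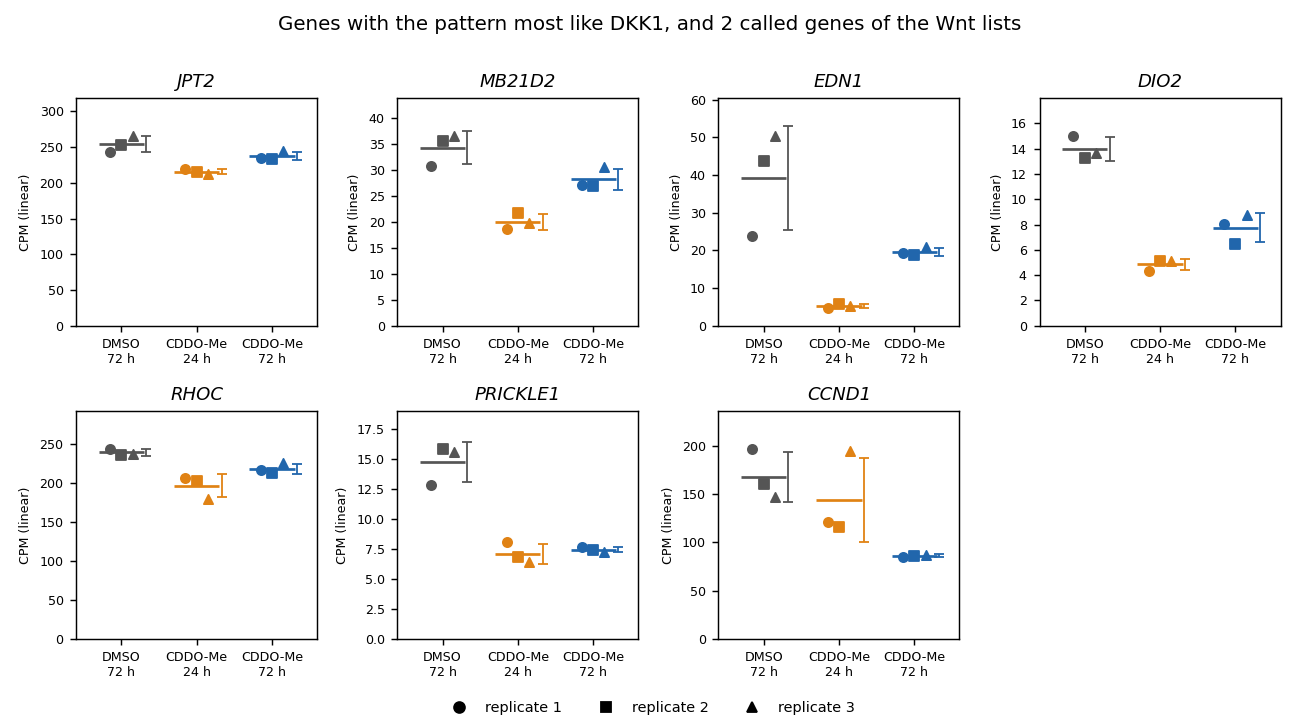
Level in each library of the 5 genes with the highest Pearson r to DKK1, and of PRICKLE1 and CCND1, in CPM on linear axes that start at 0, with points for libraries, a line for the mean and a bar for the SD of 3 libraries. The 5 genes all have their lowest mean at 24 h, EDN1 at 5.17 CPM beside 39.2 CPM under DMSO, while PRICKLE1 is about as low at 72 h as at 24 h and CCND1 is lowest at 72 h.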

How the data were processed

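Polyadenylated RNA of 9 AC16 libraries was sequenced with a kit that keeps no strand, per the labels' protocols. The authors deposited raw read counts for each Ensembl gene, over its exons and not normalized. The tools STAR, SAMtools, Subread with featureCounts, and the build hg38 (GRCh38), are named without versions in the submitters' processing notes. How strand and reads with several matches were handled, and the annotation release, is not given in the sources used here. All 9 columns were matched to samples by name.

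From these counts, edgeR 4.0.16 in R 4.3.3 (trimmed mean of M values, filterByExpr, robust quasi-likelihood) fitted 3 group means to all 9 libraries, with 6 residual degrees of freedom, with Benjamini-Hochberg adjustment over 14965 genes. SE is the size of the log2 difference over the square root of F. CPM uses the scaled library size. The fit was tried on simulated data in which no library stood apart, so that trial is no check on the effect of such libraries. No 2 replicates agreed within sampling noise (lowest chi-square per degree of freedom 2.08). DESeq2 1.42.0, other size factors, no filter, 2-group fits, a replicate block and fits without libraries were alternatives.

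The members and lists were chosen with earlier results of these data known. Named besides the 10 genes were called genes of the Wnt lists (at most 3 per list and comparison), otherwise the most expressed of a list, and the 5 genes most like DKK1 (log2 of CPM plus 0.5, average log2 CPM of at least 3). Promoter sequences of 5 of the 10 genes were matched in a RefSeq table (GRCh38.p14). The counts without DKK1 were added after the data were seen.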

Additional observations from a re-analysis of the deposited data

How the results depend on the processing

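Of 864 single-gene log2 differences under the alternatives, for the tested genes named and so without DKK1, 818 kept their side of the threshold, 34 gained a call, 12 lost one and none that was called changed sign. DKK1, with no test, ran from -0.84 to -0.73 at 24 h, from -0.40 to -0.33 at 72 h and from 0.36 to 0.48 between the treated groups. Counts below are in the order 24 h against DMSO, 72 h against DMSO and 72 h against 24 h. All genes gave 321, 901 and 152 calls. The 9 listed genes other than DKK1 gave 0, 3 and 0. The planned count over all 10 is not given, since it includes DKK1, whose choice used these libraries. The other Wnt genes gave 1, 2 and 0.

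Without a filter on low counts, the listed genes other than DKK1 gave 2 at 24 h and the other Wnt genes 4, 8 and 2. All genes then gave 662 and 507 at the first and last comparison. With DESeq2 the listed genes other than DKK1 gave 2 at 24 h and the other Wnt genes 3, 5 and 2. All genes then gave 530 and 388 at the first and last comparison. Both fits ran without the filter that left 14965 genes. Their all-gene counts at 72 h against DMSO are not given here, so the 8 and 5 have no background beside them. With only the 2 groups compared, all genes gave 100 and 1776 at 24 h and 72 h against DMSO, and the other Wnt genes 10 at 72 h. Without both libraries that stood apart, the listed genes other than DKK1 gave 4, 5 and 3. The other Wnt genes gave 14, 16 and 19, and all genes 3464, 2724 and 3471.

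Leaving out each library in turn gave 0 to 1, 2 to 4 and 0 to 0 for the listed genes other than DKK1. Ranges for the other Wnt genes were 1 to 12, 1 to 11 and 0 to 9. Those for all genes were 134 to 1657, 401 to 1972 and 32 to 1843. The high ends for the other Wnt genes and all genes came without 24 h replicate 3. The cause of these shifts was not tested. With other library size factors the median over all genes was at most 0.03 on the log2 scale.

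The replicate numbers were not taken as pairing the samples: deviations of same-numbered samples correlated by 0.001 to 0.177, over 0.1 in 2 of 9 pairs, and a sample's best match in another group had its own number in 9 of 18 cases. With the replicate block the counts of all genes were 358, 963 and 219, and the listed genes other than DKK1 gave 1, 2 and 0. FZD7 was then called at 24 h (adjusted p = 0.0389), and SFRP1 and CCND1 at 72 h were not (0.135 and 0.0614 by edgeR). AXIN2 was limited by its low counts, at 29 to 56 reads per library. Only CPM of at least 0.11 to 0.175 could be told from 0.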

Other observations

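Of the 65 tested further Wnt genes, 21 had all 72 h libraries below all DMSO libraries. In 5 they were all above (KREMEN1, PORCN, SP5, CELSR1 and VANGL1). Among all 14965 tested genes, 2270 were all below and 2326 all above, together 30.7%. PRICKLE1 and CCND1, both lower, were the only ones of the 65 called by edgeR in the fit of all 9 libraries. The following were picked after their values were seen, for being lower. ROR1, a receptor for WNT5A, had means of 11.5 ± 1.19 CPM under DMSO, 7.45 ± 1.27 at 24 h and 8.16 ± 1.16 at 72 h (SD, n = 3 each), with log2 differences from DMSO of -0.62 and -0.50 (adjusted p = 0.0707 and 0.0947 by edgeR), and DESeq2 called it at 24 h (adjusted p = 0.0247). WNT2B, a canonical ligand, had 5.96 ± 2.02, 2.44 ± 1.54 and 2.23 ± 0.083 CPM, with differences of -1.34 and -1.42 (adjusted p = 0.21 and 0.106 by edgeR), and DESeq2 called it at both times (adjusted p = 0.0385 and 0.013). WNT2B shares 2661 exon bases with ST7L on the opposite strand, whose reads cannot be told apart from its own. LGR5, an R-spondin receptor, had 15.4 ± 1.81 CPM under DMSO and 11.2 ± 0.527 at 72 h, a difference of -0.46 (adjusted p = 0.0978 by edgeR), and its 24 h libraries overlapped with those of DMSO. Of the 5 that were higher, SP5 and CELSR1 had log2 differences of 1.36 and 1.31 at 72 h (adjusted p = 0.145 and 0.135 by edgeR). Both rest on few reads. SP5 had 2 to 10 per library under DMSO and 12 to 20 at 72 h, and CELSR1 had 10 to 15 and 26 to 31.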
